A study of Schizosaccharomyces pombe with 8 samples.

Results

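The genes described here were rrk1, which encodes the RNA subunit of RNase P, and the 3 transfer RNA (tRNA) genes of the list of Pac1-associated genes, SPBTRNAASP.04, SPBTRNAHIS.02 and SPATRNAMET.02. They are 4 of the 167 systematic gene names in that list, and they were chosen by having a peak, so their peaks are described without a test. In the reference annotation used for comparison, 155 of 6869 genes (2.26%) overlapped a peak, and nothing is read from that share for these 4 genes. Chromatin immunoprecipitation sequencing (ChIP-seq) was done on 2 Pac1-TAP immunoprecipitates and the 2 matching inputs of the fission yeast Schizosaccharomyces pombe. These came from 1 strain, FBY2277, an h+ strain in which the chromosomal pac1 gene carries the tag (Pac1-TAP-natMX6) and which has the alleles ade6-M216 and leu1-32 as well as ura4-D18 and his3-D1. It was grown at 30 °C in minimal medium (EMM) with adenine, uracil, histidine and leucine. Immunoprecipitates of untagged cells were not used here. The other 4 libraries of the series were RNA polymerase II (RNAPII) immunoprecipitates (antibody 8WG16) and inputs of a Pac1 anchor-away strain and of its control strain, both given rapamycin at 2.5 µg/ml for 2 h, and they were not analysed here. The list combined the peaks of both replicates and gave 1 p-value per peak, so no value per library, no depth and no replicate error can be given.

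Pac1 is an RNase III enzyme, a class of endonucleases that cut double-stranded stems in RNA. RNase P is a ribonucleoprotein that removes the 5′ leader of precursor tRNAs, and its RNA subunit carries the catalytic activity. RNase MRP is a related enzyme, with its own RNA (mrp1) and many of the same proteins, that acts in ribosomal RNA processing. tRNA genes are transcribed by RNA polymerase III (RNAPIII) from promoter elements inside the gene, called the A and B boxes, and transcription ends at a run of T in the coding strand. In fission yeast, a TATA motif upstream of the gene also takes part in tRNA gene transcription. The rrk1 gene, by contrast, has an RNAPII promoter, and its primary transcript is longer than the RNA in the enzyme.

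The tRNA genes are printed first because their sequences set which reads can be assigned to them. Each sequence is the RefSeq gene (build ASM294v3) on its coding strand with 30 nt of downstream sequence, and capitals mark the match to the B box (letters GTTCNANNC, searched on the coding strand of the gene) and the first run of 4 or more T downstream. SPBTRNAASP.04 is at II:3939227-3939327 with that flank (plus strand), SPBTRNAHIS.02 at II:960729-960830 (plus strand) and SPATRNAMET.02 at I:1484949-1485061 (minus strand).
SPBTRNAASP.04: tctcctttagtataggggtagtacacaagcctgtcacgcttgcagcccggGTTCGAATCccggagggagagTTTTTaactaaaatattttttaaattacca
SPBTRNAHIS.02: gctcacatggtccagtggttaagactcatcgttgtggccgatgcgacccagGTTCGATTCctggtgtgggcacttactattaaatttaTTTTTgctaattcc
SPATRNAMET.02: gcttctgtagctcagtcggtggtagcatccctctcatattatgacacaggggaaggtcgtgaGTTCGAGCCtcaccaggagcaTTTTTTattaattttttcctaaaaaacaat
The B box letters were present in all 3 genes, as in 156 of 171 tRNA genes of the reference annotation (91.2%). A T run began at the first nucleotide after the gene in SPBTRNAASP.04 (5 T) and in SPATRNAMET.02 (6 T). In SPBTRNAHIS.02 the first run (5 T) began at nucleotide 17 after the gene. Over the 167 tRNA genes with a run within 60 nt, the median start was nucleotide 4. Of all 171 tRNA genes, 144 (84.2%) had a run starting within 10 nt, 7 had their first run later than SPBTRNAHIS.02, and 4 had none within 60 nt. The letters TATA were found in the 60 nt upstream of SPBTRNAASP.04 (28 bp from the gene) and of SPBTRNAHIS.02 (6 bp from the gene), as in 136 of 171 tRNA genes (79.5%), and were not found in that window of SPATRNAMET.02. The 136 genes had these letters anywhere in that window, and the distance of TATA from the gene was not compared over tRNA genes. These are matches of letters, not mapped sites.

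The peak at rrk1 was the only one of the 4 whose centre lay in the RNA gene. rrk1 (SPNCRNA.128, listed as the RNase P K-RNA) is annotated at III:989942-990834 on the minus strand, with a length of 893 bp. Its peak (III:989400-990595) was 1196 bp wide, the fiftieth of 88 peaks counted from the widest, and its combined p-value was listed as 0, as for 34 of the 88 peaks. The centre was 55.5 bp upstream of the 3′ end of rrk1 and 390.5 bp from its midpoint, on the 3′ side. The peak began 239 bp downstream of the 5′ end of the gene and reached 542 bp beyond its 3′ end. It held 654 bp of rrk1 (73.2% of the gene), which was 54.7% of the peak. The annotated 5′ portion of rrk1 was therefore outside the peak, and its 3′ end and the sequence after it were inside.

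The list gave 2 other genes for the rrk1 peak. SPCC1795.05c (ura6 in RefSeq, a uridylate kinase that acts in pyrimidine nucleotide synthesis) is on the plus strand, so that it and rrk1 converge, and 310 bp of it lay in the peak, with 232 bp between the 2 genes. map2, which encodes the mating pheromone P-factor, was listed with an overlap of 340 bp. In RefSeq, however, map2 ends 2715 bp from the peak, since its listed bounds include a long 5′ portion. With all long non-coding RNAs of RefSeq counted, SPNCRNA.7136 was also there, on the strand opposite to rrk1. It lay wholly in the rrk1 peak (637 bp, 53.3% of the peak) and also held the peak centre. The next peak lay 1373 bp away (III:991969-992592, combined value of significance 3.52e-266) and was paired with pre10, a proteasome subunit gene, and snR10, a box H/ACA small nucleolar RNA (snoRNA) gene. By the RefSeq bounds, pre10 overlapped the 5′ part of rrk1 and lay 96 bp outside the rrk1 peak.

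The sequence at the 3′ end of rrk1 is shown because the peak centre lay there, and that of mrp1 is shown for comparison. Each is 100 nt before and 100 nt after the annotated 3′ end on the coding strand (RefSeq, build ASM294v3; rrk1 III:989842-990041, minus strand; mrp1 I:1234750-1234949, plus strand), with the longest predicted stem and its loop in capitals.
rrk1: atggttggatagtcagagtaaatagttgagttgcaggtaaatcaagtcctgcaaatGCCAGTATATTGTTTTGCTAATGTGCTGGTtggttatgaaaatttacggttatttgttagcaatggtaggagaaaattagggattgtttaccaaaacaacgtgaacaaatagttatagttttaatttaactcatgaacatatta
mrp1: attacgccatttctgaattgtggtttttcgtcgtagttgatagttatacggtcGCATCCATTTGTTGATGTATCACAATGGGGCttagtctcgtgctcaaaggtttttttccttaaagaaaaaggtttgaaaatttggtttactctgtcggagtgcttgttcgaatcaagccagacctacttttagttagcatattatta
The longest stem had 12 base pairs in both genes (unpaired stretches of up to 3 nt a side were allowed within a stem). In rrk1 it spanned 43 to 14 nt before the last nucleotide of the gene, and in mrp1 46 to 16 nt before it. A stem at least this long was predicted at the 3′ end of 5697 of 6869 genes (82.9%), so its length did not set these genes apart in this window. Longer stems were predicted elsewhere in rrk1 and are given below. The lowest folding energy in the 200 nt was −35.0 kcal/mol in rrk1 and −31.6 kcal/mol in mrp1, against a median of −21.4 kcal/mol over all genes. Values as low were predicted for 205 genes (2.98%) in the case of rrk1 and 429 genes (6.25%) in the case of mrp1. The G+C content of these windows was 32% in rrk1 and 37% in mrp1, above the median of 29.5%, and its part in the folding energy was not tested.

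Within the rrk1 gene, the structure of lowest energy (−56.4 kcal/mol, span of up to 150 nt, 37 °C) covered nucleotides 484 to 627 of 893. It is printed because it is the most stable local fold predicted for the gene at this span, and it lies inside the peak, whose 5′ limit is at nucleotide 240 of the gene, but upstream of the peak centre at nucleotide 837.5. With a span of up to 100 nt, the lowest energy was instead at nucleotides 93 to 192, outside the peak. The sequence is that of the 150-nt span (III:990208-990351, minus strand, RefSeq, ASM294v3).
rrk1 local fold: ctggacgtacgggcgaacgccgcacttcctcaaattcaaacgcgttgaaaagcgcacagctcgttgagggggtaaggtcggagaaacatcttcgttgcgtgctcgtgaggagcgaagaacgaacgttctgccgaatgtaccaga
At the same setting the longest stem within rrk1 had 36 base pairs, at nucleotides 289 to 396. At 30 °C it had 40 base pairs, at nucleotides 717 to 822, nearer to the peak centre. With spans of up to 100 nt and 200 nt it had 29 and 28 base pairs. All of these stems lay inside the peak, and stems over the whole gene were not predicted for other genes. On the 542 bp of the peak past the 3′ end of rrk1, the lowest energy was −33.1 kcal/mol. Folding was predicted from sequence, and cleavage was not measured in these libraries.

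mrp1 (SPNCRNA.82, I:1234451-1234849, plus strand), the RNA of RNase MRP, had a peak of similar placement. The mrp1 peak (I:1234476-1235380, 905 bp, p listed as 0) began 25 bp downstream of the 5′ end of mrp1 and held 93.7% of the gene. The peaks reached 542 bp past the 3′ end of rrk1 and 531 bp past that of mrp1. The centre was 55.5 bp upstream of the 3′ end in rrk1 and 79 bp downstream of it in mrp1. These are the annotated ends, and where the RNAs found in the enzymes end was not examined, so the 2 distances may not be alike. RNase P and RNase MRP were represented by 14 genes in the annotation, of which both RNA genes and 0 of 12 protein genes overlapped a peak. Of all genes 2.26% did, so 0 of 12 is near the background, and rrk1 was chosen for its peak. The nearest protein gene was pop8, at 4080 bp from a peak, and the others lay up to 230966 bp away.

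**Figure D1:**
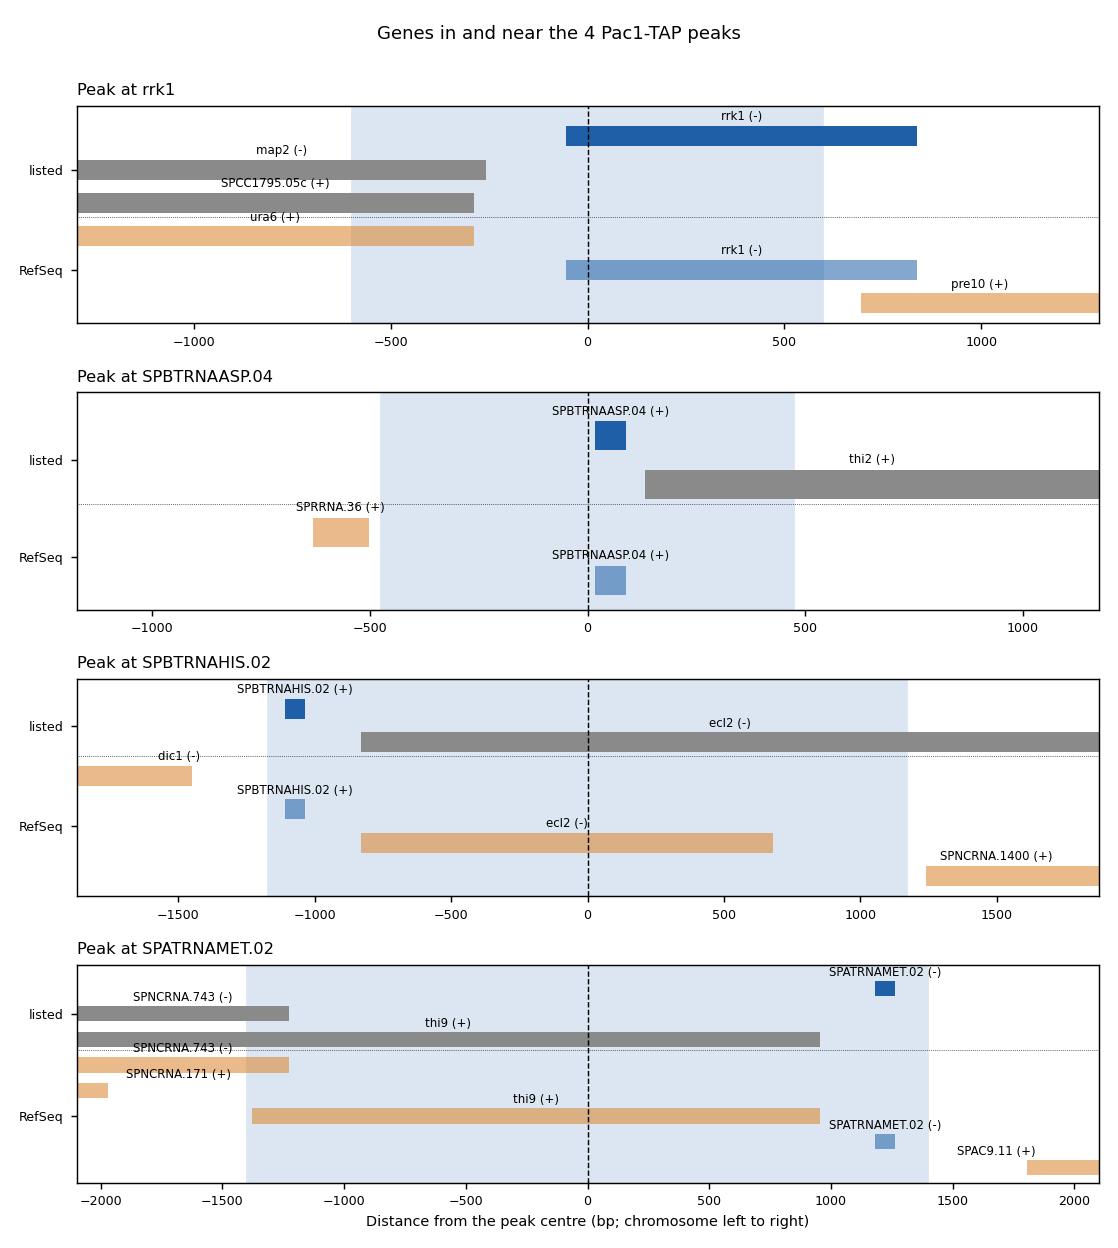
Each panel shows 1 peak (shaded) on a scale of bp from its centre (dashed line), with genes as bars and their strand in parentheses. The RNA gene is in blue, other listed genes are in grey and RefSeq genes of the matched annotation are in orange below the dotted line; the centre lies in rrk1, 18 bp from SPBTRNAASP.04, in ecl2 for SPBTRNAHIS.02 and in thi9 for SPATRNAMET.02.

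SPBTRNAASP.04, a gene for the aspartic acid tRNA, was nearest to the centre of its peak among the 3 tRNA genes. The gene (II:3939227-3939297, plus strand, 71 bp) lay in a peak of 947 bp (II:3938736-3939682, combined value of significance 7.67e-278, with 37 peaks at smaller values). The peak centre was 18 bp upstream of the 5′ end of the gene and 53 bp from its midpoint. The peak reached 491 bp upstream and 385 bp downstream of the tRNA gene, which made up 7.50% of its width. The list paired it also with thi2, a gene of thiazole synthesis in the thiamine pathway, over 341 bp. That pairing rested on the listed start of thi2, since in RefSeq thi2 begins 843 bp beyond the peak, and then SPBTRNAASP.04 was the only gene of the matched annotation in it. With all long non-coding RNAs of RefSeq counted, SPNCRNA.6356 (227 bp, opposite strand) was also there.

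A 5S ribosomal RNA gene, SPRRNA.36, also transcribed by RNAPIII, lay 28 bp outside that peak on the upstream side and 519 bp from the tRNA gene. Downstream, another peak lay 652 bp away (II:3940335-3942014, 1680 bp, p listed as 0) and was paired with thi2 and with sec9, which encodes a SNARE protein of membrane fusion. SPBTRNAASP.04 thus lay in a separate peak, with a peak paired with thi2 on its downstream side.

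SPBTRNAHIS.02, a histidine tRNA gene, lay at the margin of its peak. The gene (II:960729-960800, plus strand, 72 bp) was 64 bp inside the left edge of a peak of 2344 bp (II:960665-963008, p listed as 0), the eighteenth widest of 88. The peak centre was 1036.5 bp beyond the 3′ end of the tRNA gene and lay in ecl2, which encodes a small protein that extends chronological lifespan when overexpressed. ecl2, on the opposite strand and 206 bp from the tRNA gene, accounted for 2002 bp of the peak (85.4%) by its listed bounds and 1509 bp (64.4%) by the RefSeq bounds, and the tRNA gene for 3.07%. By the RefSeq bounds the whole of ecl2 lay in the peak. The nearest other peak was 76345 bp away.

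SPATRNAMET.02, a methionine tRNA gene, was likewise near an edge. The gene (I:1484979-1485061, minus strand, 83 bp) was 135 bp inside the right edge of a peak of 2799 bp (I:1482398-1485196, combined value of significance 1.22e-306, with 34 peaks at smaller values), the tenth widest. The peak centre was 1182 bp beyond the 3′ end of the tRNA gene and lay in thi9, which encodes a thiamine transporter of the plasma membrane. thi9, on the opposite strand and 226 bp away, accounted for 2355 bp of the peak (84.1%), and the tRNA gene for 2.97%. SPNCRNA.743, a non-coding RNA on the strand opposite to thi9 and overlapping it, reached 173 bp into the other end of the peak. The next peak was 956 bp away on that side (I:1478361-1481441, combined value of significance 2.17e-237), was paired with met26, a methionine synthesis gene, with SPAC9.08c and an antisense RNA to it, and shared thi9 and SPNCRNA.743 with the SPATRNAMET.02 peak in the list. For thi9 that sharing rested on its listed start, since by the RefSeq bounds 2334 bp, the whole of thi9, lay in the SPATRNAMET.02 peak. With all long non-coding RNAs of RefSeq counted, SPNCRNA.2655 (2004 bp, 71.6% of the peak, opposite to thi9) also held the peak centre. SPNCRNA.2656, on the strand opposite to SPATRNAMET.02, overlapped that tRNA gene and had 345 bp in the peak.

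Over the 4 peaks the list named 10 genes, the 4 RNA genes and 6 others. The matched annotation placed 8 genes there, of which 3 were protein-coding (ura6, ecl2 and thi9). In 3 of the 4 peaks the RNA gene and a protein-coding gene converged, with their 3′ ends facing each other across 232 bp (rrk1 and ura6), 206 bp (SPBTRNAHIS.02 and ecl2) and 226 bp (SPATRNAMET.02 and thi9), and all 3 of these intervals lay inside the peaks. How often neighbouring genes converge at other peaks or over all genes was not counted, so nothing is read from this orientation. Over the whole list, 53 of 88 peaks were paired with 2 or more genes. Of 7 thiamine genes (nmt1, thi1, thi2, thi4, thi5, thi9 and pho4), 3 overlapped a peak by RefSeq bounds (thi9, thi2 and nmt1), beside 2.26% of all genes. The list was made with the peaks of thi2 and thi9 known, so nothing is read from its count, and the nearest of the others, thi4, was 18324 bp from one. The thi9 peak was the one with SPATRNAMET.02, and the thi2 peak was the one next to SPBTRNAASP.04.

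The distance between the peak centre and the nearest edge of the RNA gene was then set beside that of small nuclear RNA (snRNA) and snoRNA genes of the same list. For the tRNA genes it was 18 bp, 1036.5 bp and 1182 bp, and for rrk1 it was 0 bp. Among the 19 snRNA and snoRNA genes its median was 85.5 bp, the smallest value being 0 bp and the largest 474 bp. More than 500 bp lay between them for 2 of 3 tRNA genes and for 0 of 19 snRNA and snoRNA genes. The peaks with tRNA genes were 947, 2344 and 2799 bp wide, and those with snRNA and snoRNA genes had a median width of 781 bp (545 to 2331 bp). The 2 tRNA genes with distances over 500 bp thus had peaks wider than any of the latter. Whether this distance follows peak width was not tested. The distance to the nearest edge has no direction. The centre lay within the gene at sno16 and snoR61, as at rrk1. At snR10, snoU14 and snoZ16 it lay outside the gene, beyond the 5′ end, by 155.5, 247.5 and 35 bp. At the other snRNA and snoRNA genes it lay past the 3′ end, as at mrp1, by 23.5 bp (snu3) to 474 bp (snu4). Placement around the 3′ end was thus not particular to rrk1 and mrp1. All these genes were selected on having a peak, and no test was made.

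**Figure D2:**
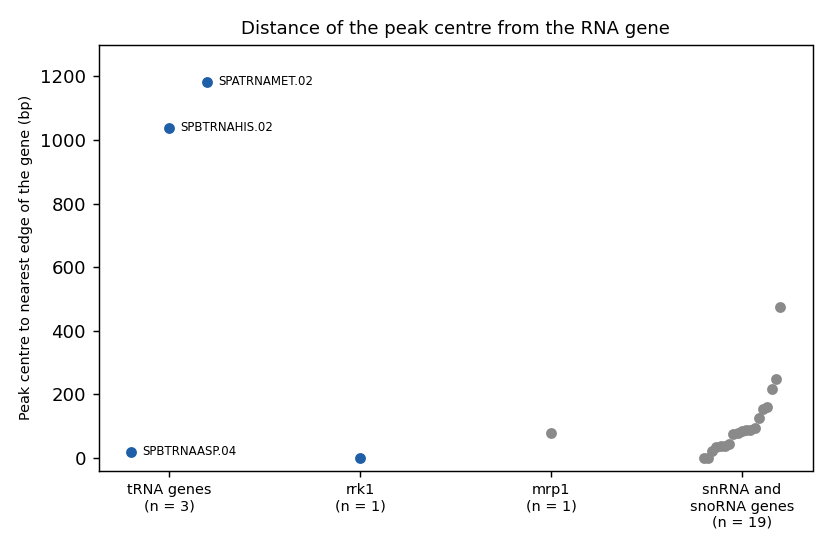
Points are listed genes, and the vertical axis gives the distance in bp of the peak centre from the nearest edge of the RNA gene (0 where the centre is in the gene). SPBTRNAHIS.02 and SPATRNAMET.02 are at 1036.5 and 1182 bp, SPBTRNAASP.04 is at 18 bp, rrk1 at 0 bp and mrp1 at 79 bp, against 0 to 474 bp for 19 snRNA and snoRNA genes.

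Of 171 tRNA genes (56, 68 and 47 on chromosomes I, II and III), the 3 listed ones overlapped a peak (1.75%), a share near the 2.26% of all genes, each with its whole length, and 0 held a peak centre. All 3 peaks had a combined p-value under 1e-200. The other tRNA genes were at a median distance of 72980 bp and at most 287624 bp from the nearest peak. The nearest to a peak without overlap were SPCTRNASER.11, a serine tRNA gene at 589 bp, and SPCTRNAMET.07, a methionine tRNA gene at 693 bp, both beside the peak of tef3, a translation elongation factor gene. The listed tRNA gene nearest to a peak edge was SPBTRNAHIS.02, 64 bp inside.

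The U6 snRNA gene snu6, the signal recognition particle RNA gene srp7 and 36 genes for 5S rRNA gave 0 of 38 genes with an overlap. With a share of 2.26% over all genes, this count is near the background and says nothing particular of genes transcribed by RNAPIII. SPRRNA.36, at 28 bp from the SPBTRNAASP.04 peak, was the nearest of them, and the next 5S rRNA gene was 513 bp from a peak. Of 7 protein genes of tRNA processing (the splicing endonuclease subunits sen2, sen15, sen34 and sen54, the 3′ processing endonucleases trz1 and trz2, and sla1, which encodes the La protein), 0 overlapped a peak, which is near the background as well, and trz2 was nearest at 1107 bp.

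**Figure D3:**
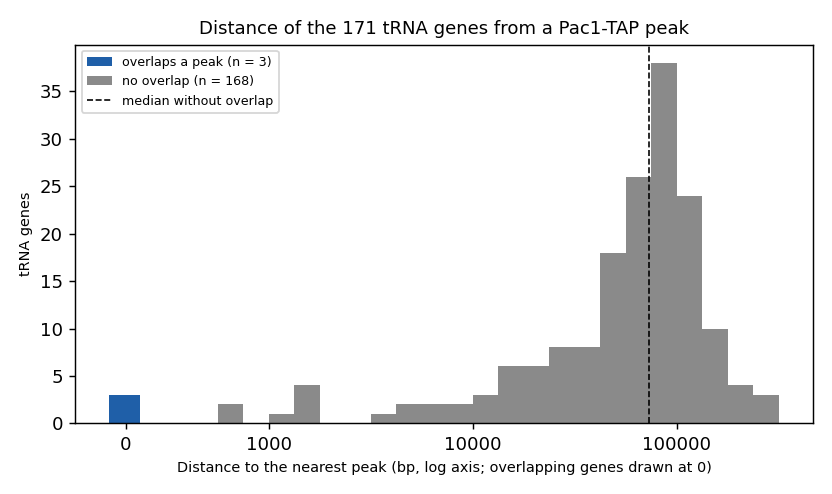
The bars count tRNA genes by distance to the nearest Pac1-TAP peak (bp, log axis, with overlapping genes drawn at 0). The 3 overlapping genes are in blue, and the other 168 in grey have a median of 72980 bp (dashed line).

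The tRNA genes differed in how far their reads could be placed. The sequence of SPBTRNAASP.04 occurred 8 times in the genome, and only the copy at SPBTRNAASP.04 overlapped a peak. RefSeq annotates 7 of the copies as genes with this sequence, and at the other (II:1602347-1602417 in ASM294v3) it annotates SPBTRNAASP.05 on the opposite strand. The nearest of the other 7 copies, SPATRNAASP.01, was 1771 bp from a peak. The sequence of SPBTRNAHIS.02 occurred 4 times, at all 4 histidine tRNA genes, and only 1 of them overlapped a peak, with the next, SPBTRNAHIS.01, 1076 bp from the peak of the U4 snRNA gene snu4. SPATRNAMET.02 was the only copy of its sequence, and the other 6 methionine tRNA genes had no peak.

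What made SPATRNAMET.02 distinct was its intron. It shared its spliced sequence with SPBTRNAMET.04 and SPBTRNAMET.05, and the 3 genes are printed with the intron in capitals because only those letters differ (RefSeq, ASM294v3; I:1484979-1485061, minus strand, II:658451-658531, plus strand, and II:1598075-1598155, minus strand).
SPATRNAMET.02: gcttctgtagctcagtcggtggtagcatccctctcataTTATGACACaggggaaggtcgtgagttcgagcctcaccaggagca
SPBTRNAMET.04: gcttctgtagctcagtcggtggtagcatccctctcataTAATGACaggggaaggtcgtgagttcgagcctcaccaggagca
SPBTRNAMET.05: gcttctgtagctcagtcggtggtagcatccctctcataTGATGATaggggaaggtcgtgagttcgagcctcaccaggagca
The intron had 9 nt in SPATRNAMET.02 and 7 nt in SPBTRNAMET.04 and SPBTRNAMET.05, each of these being 1 of the 44 intron-containing tRNA genes of 171.

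Because the libraries were read as single ends of 50 nt, each 50-nt window of the genes and of 500 bp on either side was counted in the genome. In SPBTRNAASP.04 all 22 windows and in SPBTRNAHIS.02 all 23 windows within the gene occurred more than once, while in SPATRNAMET.02 0 of 34 and in rrk1 0 of 844 did. Of the windows wholly within the flanks, 0 of 902 were repeated at each of the 4 genes. Every window was repeated in 134 of 171 tRNA genes (78.4%). Over the whole peaks, 29 of 898 windows were repeated at SPBTRNAASP.04 and 23 of 2295 at SPBTRNAHIS.02, against 0 of 1147 at rrk1 and 0 of 2750 at SPATRNAMET.02. Reads inside SPBTRNAASP.04 and SPBTRNAHIS.02 could thus come from other copies. The 29 windows at SPBTRNAASP.04 exceed the 22 within the gene, so some that cross its ends were repeated too. How the mapping placed repeated reads was not tested.

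**Figure D4:**
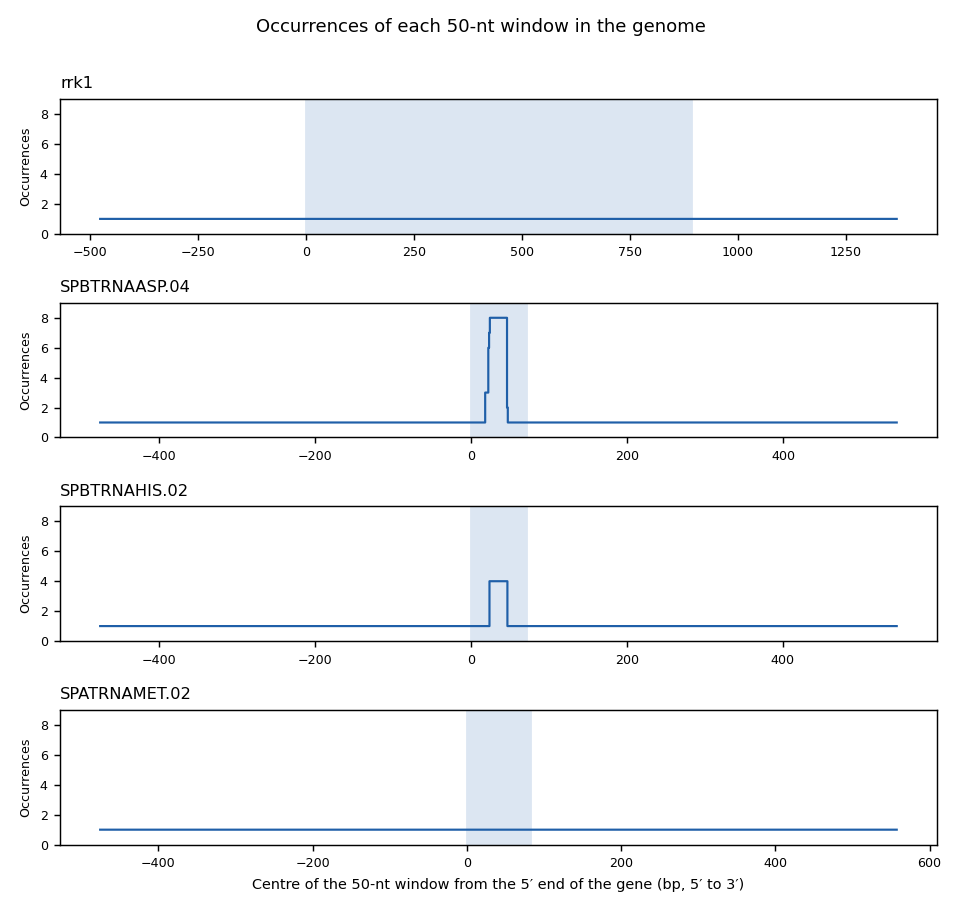
Each panel gives, for a 50-nt window centred at each position (bp from the 5′ end of the gene, gene shaded), its number of occurrences in the genome. Windows within SPBTRNAASP.04 reach 8 occurrences and those within SPBTRNAHIS.02 reach 4, while every window of rrk1 and SPATRNAMET.02 occurs once.

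The predicted folding at the 3′ ends of the 3 tRNA genes was compared with that of all tRNA genes, whose folded RNA lies within these 200-nt windows. The lowest energy was −36.7 kcal/mol at SPBTRNAHIS.02, −35.6 kcal/mol at SPBTRNAASP.04 and −22.5 kcal/mol at SPATRNAMET.02, against a median of −32.5 kcal/mol over 171 tRNA genes. Values at least as low as that of SPBTRNAHIS.02 were predicted for 42 tRNA genes, for SPBTRNAASP.04 for 58 and for SPATRNAMET.02 for 167. By energy SPATRNAMET.02 was thus near the weak end of the tRNA genes. The longest stem had 30 base pairs at SPBTRNAASP.04, from 10 nt before to 83 nt after the last nucleotide of the gene. A stem as long was predicted for 7 of 171 tRNA genes and 225 of 6869 genes (3.28%). Most of this stem lay past the T run of 5 T that begins at nucleotide 1 after the gene, and so outside the tRNA. The longest stem had 15 base pairs at SPBTRNAHIS.02 (63 to 24 nt before the last nucleotide) and 17 at SPATRNAMET.02 (39 to 94 nt after it). The median was 16 over tRNA genes.

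**Figure D5:**
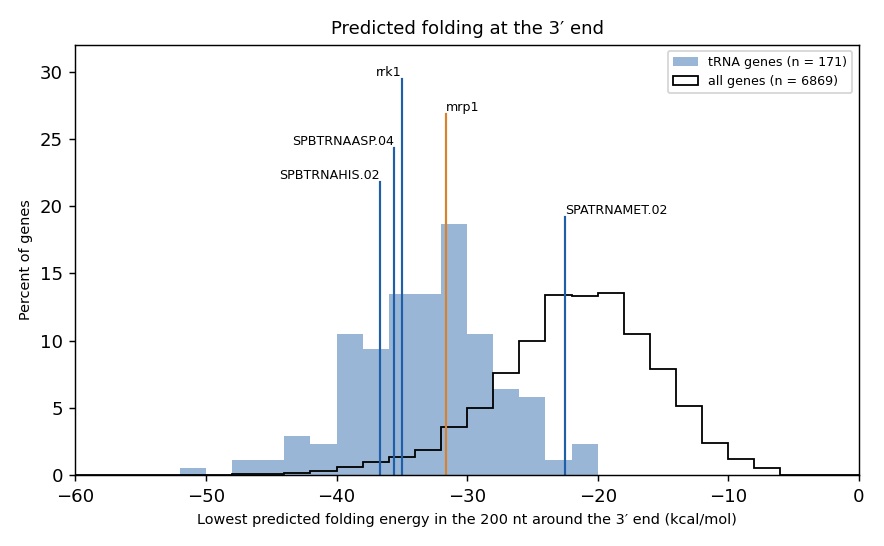
The histograms give the percent of genes by the lowest predicted folding energy (kcal/mol) in the 200 nt around the annotated 3′ end, for 171 tRNA genes (filled) and 6869 genes (line), with vertical lines for the 4 described genes (blue) and mrp1 (orange). rrk1 is at −35.0, SPBTRNAASP.04 at −35.6, SPBTRNAHIS.02 at −36.7, mrp1 at −31.6 and SPATRNAMET.02 at −22.5 kcal/mol.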

How the data were processed

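Pac1-TAP immunoprecipitates and inputs were grouped by the labels. The authors used Trimmomatic for trimming and HISAT2 for mapping to build ASM294v2. Peaks were called by the authors with MACS2 for each immunoprecipitate against its input, keeping duplicates and with no stated filter on reads of repeated sequence, and were merged over replicates with MSPC. The deposited list gives, per peak, 1 combined p-value as computed by the authors, with peak and gene bounds. It holds no value per library, so depth and the spread between replicates are unknown.

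Centres were midpoints of the listed bounds. If peak starts are 0-based, centres shift by 0.5 bp. Overlaps needed at least 1 bp. Sequences and further genes came from RefSeq (ASM294v3), read at RefSeq's own coordinates. The start and end of all 4 genes were the same in both annotations. Of the 12606 nuclear RefSeq genes, 5737 long non-coding RNAs numbered from 2000 upwards were left out, which left 6869 (the matched annotation). Folding used ViennaRNA 2.7.2 and the rest Python 3.11.15 with pandas 2.3.3 and numpy 2.4.6. The distances to peaks and genes and the search for stems were tested on made-up data. The other steps, such as the counts of copies and windows and the motif searches, had no such test. Named genes were the 4 members, genes of their peaks and neighbouring peaks, tRNA genes within 1000 bp of a peak, and the lists of RNase P and RNase MRP, RNAPIII, tRNA processing and thiamine genes. tRNA genes of the same sequence that are named individually, genes of peaks farther off and genes beside the described ones were chosen after their values were seen. The genes and lists were chosen with earlier results of these data known.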

Additional observations from a re-analysis of the deposited data

How the results depend on the processing

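Of 33 alternatives tried on the counts, distances, copy numbers and energies, 23 stayed within 1.5 times the value reported and 0 changed sign. Counts and unsigned distances could not change sign. The bounds of the 4 genes are the same in both annotations, and counting peak starts from 0 shifts a centre by 0.5 bp. Those alternatives could therefore hardly differ, and the tally is not a measure of how stable the results are. The number of the 4 genes that held a peak centre was 1, and it was 4 when any overlap counted and 3 when the whole gene had to lie in the peak. Measured to the nearest edge in place of the midpoint, the distance of the centre was 0 bp for rrk1 and 18 bp for SPBTRNAASP.04. Counting protein-coding RefSeq genes alone left 3 genes in the 4 peaks. The number of tRNA genes with a peak was 5 within 1000 bp, 10 within 2000 bp and 0 when the gene had to hold the centre. With a span of 100 nt the lowest folding energy was −36.5 kcal/mol in rrk1 and −17.4 kcal/mol on its 3′ side, as fewer long-range pairs were allowed, and the structure in rrk1 was then at nucleotides 93 to 192, outside the peak. No paired analysis was possible because each peak has 1 value over both replicates, and leaving out a replicate could not be run either. As a share of the peak width, the distance of the centre to the gene midpoint was 32.7% at rrk1, 5.60% at SPBTRNAASP.04, 45.7% at SPBTRNAHIS.02 and 43.7% at SPATRNAMET.02.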

Other observations

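The 7 RefSeq genes with the sequence of SPBTRNAASP.04 carry different product names. The product was given as tRNA-Asp for 3 of them and as tRNA-Asn for 4, although all 7 are named for aspartic acid. The gene SPBTRNAASP.05, also named for aspartic acid and with the product tRNA-Asn, is annotated on the strand opposite to the copy at its place. The list describes SPBTRNAASP.04 as an aspartic acid tRNA gene.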
